A study of Mus musculus with 4 samples.

Results

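The genes described here encode the acetylcholine receptors of muscle and the kinase that gathers one of them at the nerve ending. They were chosen by symbol as 8 of the 32285 genes counted: Chrna1, Chrnb1, Chrnd, Chrng, Chrne and Musk for striated muscle, and the muscarinic receptors Chrm2 and Chrm3 for smooth muscle and heart. Visium sections, laid on a grid of barcoded spots that each take up RNA from the overlying tissue, were cut at 8 µm from fresh frozen mouse tissue. Wild-type embryos gave a section at each of E13.5 and E16.5, and 2 sections came from esophagi dissected from wild-type neonates at P0, named P0 replicate 1 and P0 replicate 2. None of the animals was treated, and the labels do not say how many animals stand behind the P0 sections. Levels below are UMIs (distinct captured molecules) per 1000000 UMIs, written CPM, with exact Poisson 95% intervals that cover counting error only.

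The muscle nicotinic receptor is a channel of subunits that opens when acetylcholine from a motor neuron binds it and so starts contraction. In fetal muscle it holds the gamma subunit, encoded by Chrng, which the epsilon subunit, encoded by Chrne, replaces as junctions mature. MuSK, the product of Musk, is the receptor tyrosine kinase through which agrin from the nerve clusters these channels. The muscarinic receptors are G protein-coupled: M2, from Chrm2, slows the heart and is abundant in gut smooth muscle, and M3, from Chrm3, drives smooth muscle contraction and gland secretion. The mouse esophagus is a place where both systems meet, since its outer wall is built as smooth muscle before birth and is later largely striated.

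Chrna1 (ENSMUSG00000027107) lies at 2:73563281-73580338, Chrnb1 (ENSMUSG00000041189) at 11:69784036-69795966 and Chrne (ENSMUSG00000014609) at 11:70614883-70619213 in the RefSeq annotation of GRCm38.p6. Chrnd (ENSMUSG00000026251) at 1:87190597-87200070 and Chrng (ENSMUSG00000026253) at 1:87205811-87211835 are neighbours with 5740 bases between them. Musk (ENSMUSG00000057280) lies at 4:58285729-58377848, Chrm2 (ENSMUSG00000045613) at 6:36387991-36528638 and Chrm3 (ENSMUSG00000046159) at 13:9875486-10361062. Chrm2 overlaps the annotated gene 9330158H04Rik, Chrna1 overlaps Gm30940, Chrne overlaps 4930544D05Rik and Chrm3 overlaps Gm26861, so reads in shared stretches may be hard to assign to a gene of each pair.

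The promoters of 3 subunit genes are shown because 2 of them, Chrna1 and Chrng, were captured in the same places as myogenic regulators, while Chrne was scarce. Each is the 250 bases before the start in the RefSeq table (GRCm38.p6), read 5′ to 3′ on the strand of the gene. Capitals mark CANNTG, the E-box bound by myogenic factors, and CCGGAA or its reverse complement TTCCGG, the N-box bound by ETS factors. CANNTG and CCGGAA do not share bases in these windows.
Chrna1, minus strand, chr2:73580339-73580588: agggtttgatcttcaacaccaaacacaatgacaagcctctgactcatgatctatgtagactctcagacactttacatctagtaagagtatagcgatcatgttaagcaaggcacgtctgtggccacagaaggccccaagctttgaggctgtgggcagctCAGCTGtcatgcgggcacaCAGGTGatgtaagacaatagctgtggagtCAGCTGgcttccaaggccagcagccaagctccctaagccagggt
Chrng, plus strand, chr1:87205561-87205810: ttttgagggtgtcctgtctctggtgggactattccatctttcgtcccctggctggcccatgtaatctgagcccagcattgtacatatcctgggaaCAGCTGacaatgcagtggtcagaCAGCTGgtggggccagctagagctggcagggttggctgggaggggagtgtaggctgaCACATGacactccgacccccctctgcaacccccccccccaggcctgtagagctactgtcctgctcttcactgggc
Chrne, minus strand, chr11:70619195-70619444: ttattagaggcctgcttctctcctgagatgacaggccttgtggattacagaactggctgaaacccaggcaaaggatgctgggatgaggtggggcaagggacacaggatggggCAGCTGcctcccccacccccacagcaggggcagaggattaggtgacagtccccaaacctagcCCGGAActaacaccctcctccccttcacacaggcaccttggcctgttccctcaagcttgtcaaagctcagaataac
Chrna1 and Chrng each held 3 CANNTG motifs, 2 of them of the form CAGCTG, and no CCGGAA. Chrne held 1 CANNTG, also of the form CAGCTG, and 1 CCGGAA. Of the other members in the table, Chrnb1 and Musk held 3 CANNTG each, and Chrm2 and Chrm3 held none. Over 32851 promoters of the same length 66.2% held at least 1 CANNTG, 13% at least 1 CAGCTG and 12.0% at least 1 CCGGAA, and 12.2% held 3 or more CANNTG. A match is a run of letters and was not tested for binding.

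After spots under 500 UMIs were left out, 3220 spots remained at E13.5, 3588 at E16.5, 363 in P0 replicate 1 and 264 in P0 replicate 2, with median depths between 25465 and 29289 UMIs. Spots were ranked by marker scores, and the highest 2% of an embryo section or 25% of a P0 section form its striated-muscle-rich, smooth-muscle-rich and epithelium-rich spots, and in the embryos also heart-rich, neuron-rich and salivary-marker-rich spots. P0 spots high for both muscle scores are a region of their own. Spots hold several cell types: striated-muscle-rich spots carried 12497 CPM of the 6 skeletal markers at E13.5, 74125 CPM at E16.5, and 4889 and 13271 CPM in P0 replicates 1 and 2. The salivary markers summed to 43.3 CPM in their own highest spots at E13.5, so that set is used at E16.5 alone, where they summed to 21678 CPM. In spots as in any bulk sample, fewer cells of a type and less RNA per cell cannot be told apart.

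In the embryos, the 4 fetal nicotinic subunit genes were highest over skeletal muscle. Chrna1, the acetylcholine-binding alpha subunit, reached 134 CPM (interval 118 to 151) in striated-muscle-rich spots at E13.5, against 2.43 CPM in smooth-muscle-rich, 0.403 CPM in heart-rich and 1.63 CPM in neuron-rich spots. Epithelium-rich spots held 10.7 CPM of it on 14 UMIs. At E16.5 it had 64.5 CPM (54.8 to 75.5) in striated-muscle-rich spots, against 24.6, 1.86 and 1.80 CPM in those same regions. Chrnb1, the beta subunit, had 61.9 CPM and 63.3 CPM in striated-muscle-rich spots of the E13.5 and E16.5 sections. Its other marker-defined regions lay between 2.10 and 9.98 CPM at both stages, and the spots outside any region stood at 12.2 CPM at E16.5. Chrnd, the delta subunit, stood at 30.1 and 41.8 CPM in striated-muscle-rich spots of the E13.5 and E16.5 sections. Chrng, the fetal gamma subunit, stood at 72.5 and 79.0 CPM there. Over heart, whose muscle is also striated, the 4 genes had between 0 and 2.92 CPM.

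Against all other spots of the section, striated-muscle-rich spots held 28.0 times the Chrna1 CPM at E13.5, 14.4 times the Chrnb1, 41.7 times the Chrnd and 26.0 times the Chrng CPM. Among 17183 genes with at least 20 UMIs at E13.5, 4.68% reached a log2 ratio of 1 in this direction and the median log2 ratio was −0.27. At E16.5 the log2 ratio also passed 1 for each of the 4, where 4.0% of 17812 genes did and the median was −0.53. With 1 section a stage there is no replicate check, and no test was made. The E16.5 smooth-muscle-rich spots, where Chrna1 was second highest, carried 2503 CPM of skeletal markers, against 108 CPM at E13.5, and the part of that in the Chrna1 level was not tested.

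**Figure D1:**
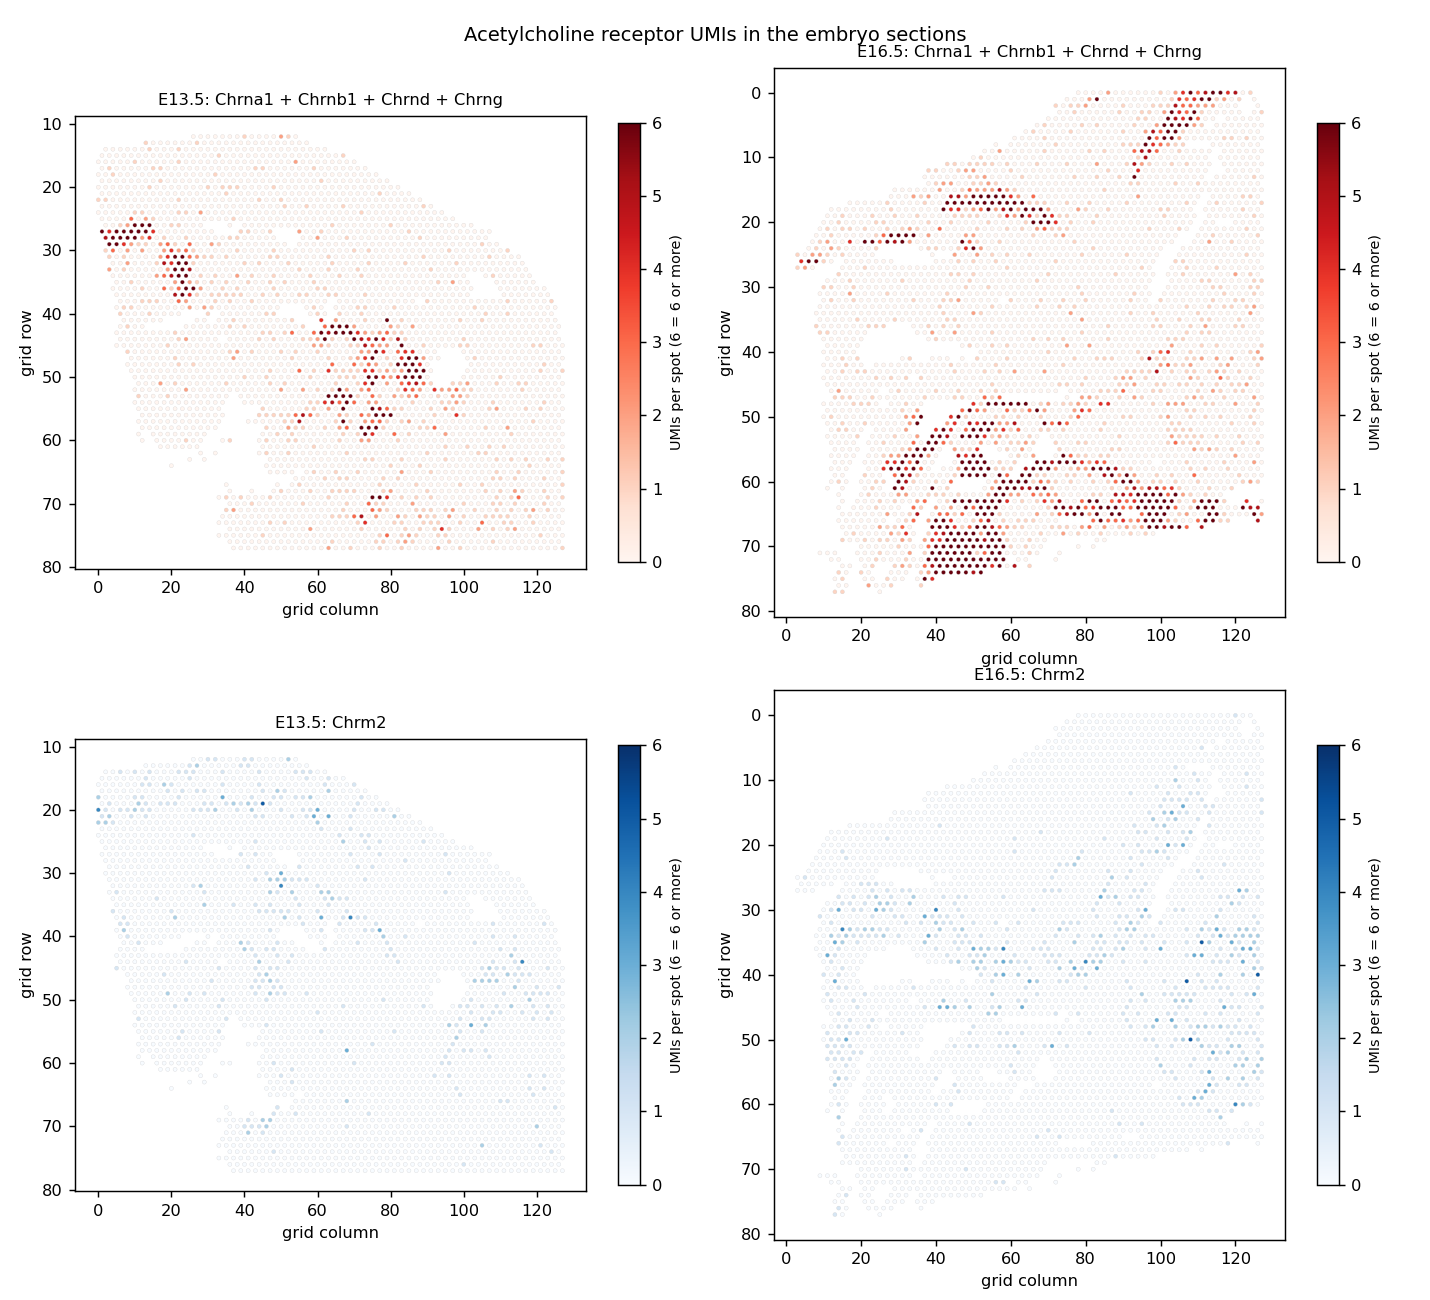
Each point is a Visium spot at its grid column and row in the E13.5 (left) and E16.5 (right) sections, coloured by summed UMIs of Chrna1, Chrnb1, Chrnd and Chrng (upper maps, red) or by Chrm2 UMIs (lower maps, blue), with counts of 6 or more in the darkest shade. The nicotinic UMIs lie in compact patches, 7 (E13.5) and 11 (E16.5) of at least 5 spots, while Chrm2 is thinly spread outside them.

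The nicotinic UMIs were gathered in few spots. At E13.5 165 spots with at least 3 UMIs of the 4 subunit genes were 5.12% of spots and held 63.2% of these UMIs. At E16.5 462 such spots, 12.9% of the section, held 79.0%. Their share of the 6 skeletal markers was close by, 57.1% at E13.5 and 75.4% at E16.5. Joined as neighbours, they formed 7 patches of at least 5 spots in the E13.5 section, the largest with 35 spots. The E16.5 section had 11, the largest with 136 spots. Around the striated-muscle-rich spots of E13.5 the summed subunits stood at 298 CPM in the spots themselves, 109 CPM at 1 grid step and 38.2 CPM at 2 steps. Beyond 3 steps they stood at 6.28 CPM. Skeletal markers fell off along the same steps, with 12497, 3682 and 1329 CPM.

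The subunits were also found together spot by spot. Of 251 spots with a Chrng UMI at E13.5, 55.8% had a Chrna1 UMI, against 7.01% of 2969 spots without Chrng. At E16.5 the shares for Chrna1 were 51.7% and 9.03%, and for Chrnd 45.2% and 5.09%. Median depths at E16.5 were 32353 and 25287 UMIs. With every spot thinned to 10000 UMIs, Chrng was found in 44.4% (E13.5) and 60.6% (E16.5) of striated-muscle-rich spots, and in 0 of the 63 and 71 heart-rich spots, with Clopper-Pearson upper bounds of 5.69% and 5.06%. Unthinned, its shares were 84.1% and 90.3% of striated-muscle-rich spots, against 1.56% and 9.72% of heart-rich spots.

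Across tiles of tissue, with 219 tiles at E13.5 and 243 at E16.5, 14355 genes were ranked by the mean of their correlations with each member in the 2 sections. For Chrna1 the nearest were Mymx (mean r 0.88), Myog (0.88) and Mymk (0.88), followed by Neb (0.87) and Atp2a1 (0.87). Mymx and Mymk drive myoblast fusion, Myog is the transcription factor of muscle differentiation, Neb encodes nebulin and Atp2a1 the calcium pump of fast fibres. For Chrng they were Mymk (0.88), Neb (0.88), Myog (0.88), Myh8 (0.88), the perinatal myosin, and Atp2a1 (0.88). Chrnd was closest to Mymx (0.82), Mymk (0.81) and Mylk4 (0.81), then to Chrna1 (0.81) and Chrng (0.80). Chrnb1 was closest to Mylk4 (0.83), Atp2a1 (0.82) and the annotated transcript Gm28653 (0.82), with Mymk (0.82) and Neb (0.82) next. These tiles share a library and its depth, and the correlations are a description.

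Chrne, the adult epsilon subunit, gave few UMIs. There were 14 UMIs at E13.5, 44 at E16.5, 2 in P0 replicate 1 and 0 in P0 replicate 2, where a floor of 3 counts stands at 0.408 CPM. Of the Chrne and Chrng UMIs together, Chrne made up 3.33% (Clopper-Pearson interval 1.83 to 5.52) at E13.5 and 3.38% (2.47 to 4.51) at E16.5. In P0 replicate 1 it made up 2 of 29, or 6.90% (0.846 to 22.8), and in P0 replicate 2 none of 65, with an upper bound of 5.52%. The 4 intervals overlap, so no change of the share between stages was detectable at this depth. In striated-muscle-rich spots alone the share was 0% of 137 UMIs (up to 2.66%) at E13.5 and 1.04% of 193 at E16.5. At E13.5 the 14 Chrne UMIs lay in 14 different spots, of which 14.3% held another subunit's UMI (Chrna1, Chrnb1, Chrnd or Chrng), against 22.4% of the other spots. At E16.5 62.2% of 37 spots with Chrne did, against 34.4% of the others.

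Part of the E16.5 Chrne UMIs lay together. A patch of 17 spots held 9 of the 44, at 14 CPM (6.41 to 26.6). The most Chrne UMIs in any single spot of the section was 5. Of its Chrne and Chrng UMIs 23.1% (11.1 to 39.3) were Chrne, against 1.21% (0.629 to 2.11) in the other 445 E16.5 spots with at least 3 subunit UMIs. The patch held Chrna1 at 88.8 CPM and Chrnb1 at 90.4 CPM, against 61.4 and 60.4 CPM in those other spots. Chrng stood the other way, at 46.7 CPM (31.5 to 66.7) in the patch, against 63.6 CPM, though its interval spans that value. The patch was picked after its Chrne count was seen, and so were the genes that follow. Those with the highest ratio to the other receptor spots were Myh4, the fast 2B myosin, at 1355 CPM against 68.7 CPM, and Myh13, a myosin known from extraocular and laryngeal muscle, at 140.2 CPM against 5.41 CPM. Next came Fam240b at 143 CPM against 6.33 CPM and 3110039M20Rik at 60.8 CPM against 2.02 CPM. The transcription factor gene Shox2 stood at 53.0 CPM against 3.85 CPM. None of the 17 spots was among the striated-muscle-rich spots, and the skeletal markers summed to 40805 CPM in them.

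Musk followed the subunits on few UMIs. It had 40 UMIs at E13.5, of which 14 fell in striated-muscle-rich spots, giving 7.40 CPM (4.05 to 12.4) there, against 0.269 CPM in all other spots. At E16.5 it had 70 UMIs and 5.79 CPM (3.17 to 9.72) in striated-muscle-rich spots. Heart-rich and neuron-rich spots held none at either stage. The 2 P0 sections gave 1 UMI each, too few to place.

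Other genes of the junction and the regulators of the subunit genes were taken from lists. All 4 myogenic regulators, Myod1, Myog, Myf5 and Myf6, passed a log2 ratio of 1 in striated-muscle-rich over other spots at both stages, with medians of 4.54 at E13.5 and 2.34 at E16.5. Myog had 699 CPM in those spots at E13.5, against 29.1 CPM elsewhere. Of 14 junction genes with at least 20 UMIs at E13.5, 6 passed upward and 2 downward, with a median of 0.78. For all genes the median was −0.27, and 4.68% passed upward and 21.1% downward. Rapsn, the scaffold that holds the receptors in clusters, stood at 85.7 CPM against 5.29 CPM, and Colq, the collagen tail of acetylcholinesterase, at 24.9 CPM against 1.36 CPM. Agrn, the nerve's clustering signal, was among those lower, with 94.1 CPM against 227 CPM. At E16.5 5 of 15 were higher and 2 lower, where 4.0% of all genes were higher and 29.2% lower.

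Of 6 neuronal nicotinic subunit genes with at least 20 UMIs at E13.5, none was higher and 3 were lower in striated-muscle-rich spots, beside 4.68% and 21.1% of all genes. At E16.5 1 of 8 was higher and 4 were lower, beside 4.0% and 29.2%. The higher one was Chrna9, with 23.6 CPM in striated-muscle-rich spots, against 3.67 CPM elsewhere. Chrna4 gave 2145 UMIs at E13.5 and 1696 at E16.5, at 7.93 and 2.07 CPM in striated-muscle-rich spots, against 22.0 and 16.4 CPM elsewhere. Chrm1 gave 74 and 67 UMIs in those sections, and Chrm4 and Chrm5 gave 0.

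Since the amount of muscle differs between sections, the subunit UMIs were also set against the UMIs of the 6 skeletal markers over all spots. Per 10000 marker UMIs Chrna1 had 116 (108 to 125) at E13.5, 12.1 (11.4 to 12.8) at E16.5, and 65.9 (50.3 to 84.9) and 48.5 (39.6 to 58.7) in P0 replicates 1 and 2. Chrng had 66.2 at E13.5, 12.2 at E16.5, and 29.7 and 30.3 in the P0 replicates. Both genes were lowest per marker UMI at E16.5, and the intervals of the embryo sections do not overlap. Chrnd moved less, with 20.6, 7.27, 15.4 and 14.9 in the same order. From E13.5 to E16.5 the marker UMIs rose from 61523 to 1028173, the Chrna1 UMIs from 715 to 1242 and the Chrnd UMIs from 127 to 747. In striated-muscle-rich spots Chrna1 went from 134 to 64.5 CPM, Chrnd from 30.1 to 41.8 CPM and Chrng from 72.5 to 79.0 CPM. The sizes of these steps depend on the cut, though their directions stayed. With the highest 5% of embryo spots Chrna1 went from 91.2 to 63.8 CPM, Chrnd from 16.9 to 43.3 CPM and Chrng from 53.4 to 72.6 CPM. Per marker UMI the Chrna1 value fell 9.62-fold and the Chrnd value 2.84-fold, since the markers rose more than the receptor UMIs. With another list of 8 striated markers the falls were 4.52-fold and 1.33-fold, and over that list and each of the 6 markers left out in turn they ranged up to 12.6-fold and 3.71-fold. The list of 8 also holds Actc1, Tnni1 and Ttn. Summed over all spots, heart included, it gave 150773 UMIs at E13.5 and 1183622 at E16.5. What the heart added to these sums was not tested. The place of the P0 values against E13.5 also depends on the list. Per 10000 UMIs of the 8 markers Chrna1 had 47.4 at E13.5, and 52.7 and 41.2 in P0 replicates 1 and 2. In the same order Chrng had 27.0, 23.7 and 25.8, and Chrnd had 8.42, 12.3 and 12.7. The embryos hold the muscles of the whole section and the P0 sections those of the esophagus, so stage and tissue cannot be told apart.

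**Figure D2:**
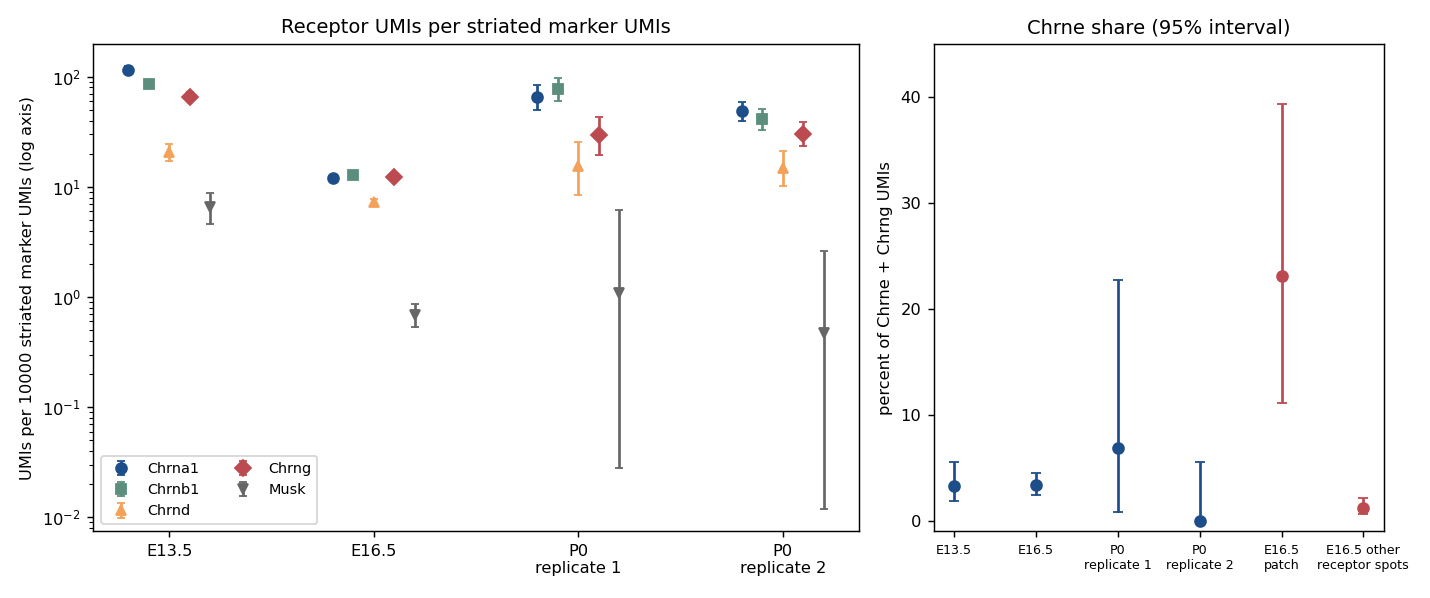
Left, UMIs of each gene per 10000 UMIs of the 6 skeletal markers in each section, on a log axis, with exact Poisson 95% intervals; Chrna1 is at 116 at E13.5 and 12.1 at E16.5. Right, the percent of Chrne among Chrne and Chrng UMIs with Clopper-Pearson 95% intervals, for the 4 sections (blue) and, within E16.5, for the patch of 17 spots and the other receptor spots (red), at 23.1% and 1.21%.

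In the P0 esophagus the subunit genes were again highest in spots rich in skeletal markers. Chrna1 had 24.3 CPM in replicate 1 and 45.7 CPM in replicate 2 in striated-muscle-rich spots, against 4.16 and 4.43 CPM in smooth-muscle-rich and 0.314 and 2.23 CPM in epithelium-rich spots. Chrng had 9.10 and 41.3 CPM in striated-muscle-rich spots, against 1.39 and 0 CPM in smooth-muscle-rich and 0 and 0.742 CPM in epithelium-rich spots. The means were 35.0 ± 15.1 CPM for Chrna1 and 25.2 ± 22.8 CPM for Chrng in striated-muscle-rich spots (SD, n = 2). Replicate 2 was higher for both genes. In each section the striated-muscle-rich value lay above those of smooth-muscle-rich and epithelium-rich spots, but for Chrng in replicate 1 its interval (4.70 to 15.9) overlaps that of smooth-muscle-rich spots (0.168 to 5.01). Chrnd, with 8.34 and 18.5 CPM in striated-muscle-rich spots, had no UMI in the smooth-muscle-rich spots of either section. Chrnb1 had 21.2 and 32.6 CPM in striated-muscle-rich spots, against 9.01 and 8.86 CPM in smooth-muscle-rich and 2.52 and 4.45 CPM in epithelium-rich spots. Its level in smooth-muscle-rich spots was the least separated of the 4. Spots high for both muscle scores held Chrna1 at 22.5 and 105 CPM and Chrng at 13.2 and 50.2 CPM.

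These regions were compared with the edgeR quasi-likelihood test on summed counts, the section as a block, over 11756 genes that passed a filter on low counts. Chrne and Musk, with 2 UMIs each, did not pass. The members that passed did so through muscle regions, where they were high, and none through epithelium-rich spots. Chrna1, Chrnd and Chrng passed through striated-muscle-rich spots and those high for both muscle scores. Their calls as higher there are therefore not independent of the filter. Between striated-muscle-rich and epithelium-rich spots all 4 subunit genes rose. Chrna1 had a log2 fold change of 4.6 ± 0.52 (SE; edgeR adjusted p = 6.68e-06), Chrnb1 2.75 ± 0.45 (0.000205), Chrnd 5.66 ± 0.92 (0.00024) and Chrng 5.64 ± 0.78 (4.16e-05). In this direction 17.3% of all genes tested were called (31.8% in either), and the median of all genes was 0.03. Epithelium-rich spots held only 1 Chrnd and 2 Chrng UMIs in both sections, so the ratios of summed CPM, 73.5 and 65.6, carry counting intervals of 12.2 to 3005 and 17.2 to 557. Regions were drawn from the same counts, and the p-values rest on 2 sections with 4 residual degrees of freedom and 12.1 prior ones.

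Set against smooth-muscle-rich spots, striated-muscle-rich spots were higher for Chrna1, by 3.03 ± 0.51 (edgeR adjusted p = 0.00068), for Chrng, by 4.62 ± 0.84 (0.00124), and for Chrnb1, by 1.63 ± 0.45 (0.0236). Chrnd was at least 9.78-fold higher, counted against 3 UMIs over both smooth-muscle-rich regions (edgeR adjusted p = 0.00224). Of the genes tested 8.72% were higher here, and 14.1% changed in either direction. The Chrnb1 call was lost without the section as a block (edgeR adjusted p = 0.0719) and with the DESeq2 Wald test (adjusted p = 0.0986). In smooth-muscle-rich over epithelium-rich spots none of the 4 passed: Chrna1 had 1.57 ± 0.83 (edgeR adjusted p = 0.134) and Chrnb1 1.12 ± 0.56 (0.115), where 24.0% of genes were called higher and 47.1% in either direction. Chrna1 passed there with the highest 15% of spots (1.94, adjusted p = 0.0312) and with spots high for both muscles shared out (2.12, adjusted p = 0.0274), and Chrnb1 in the second case (1.15, adjusted p = 0.0470).

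**Figure D3:**
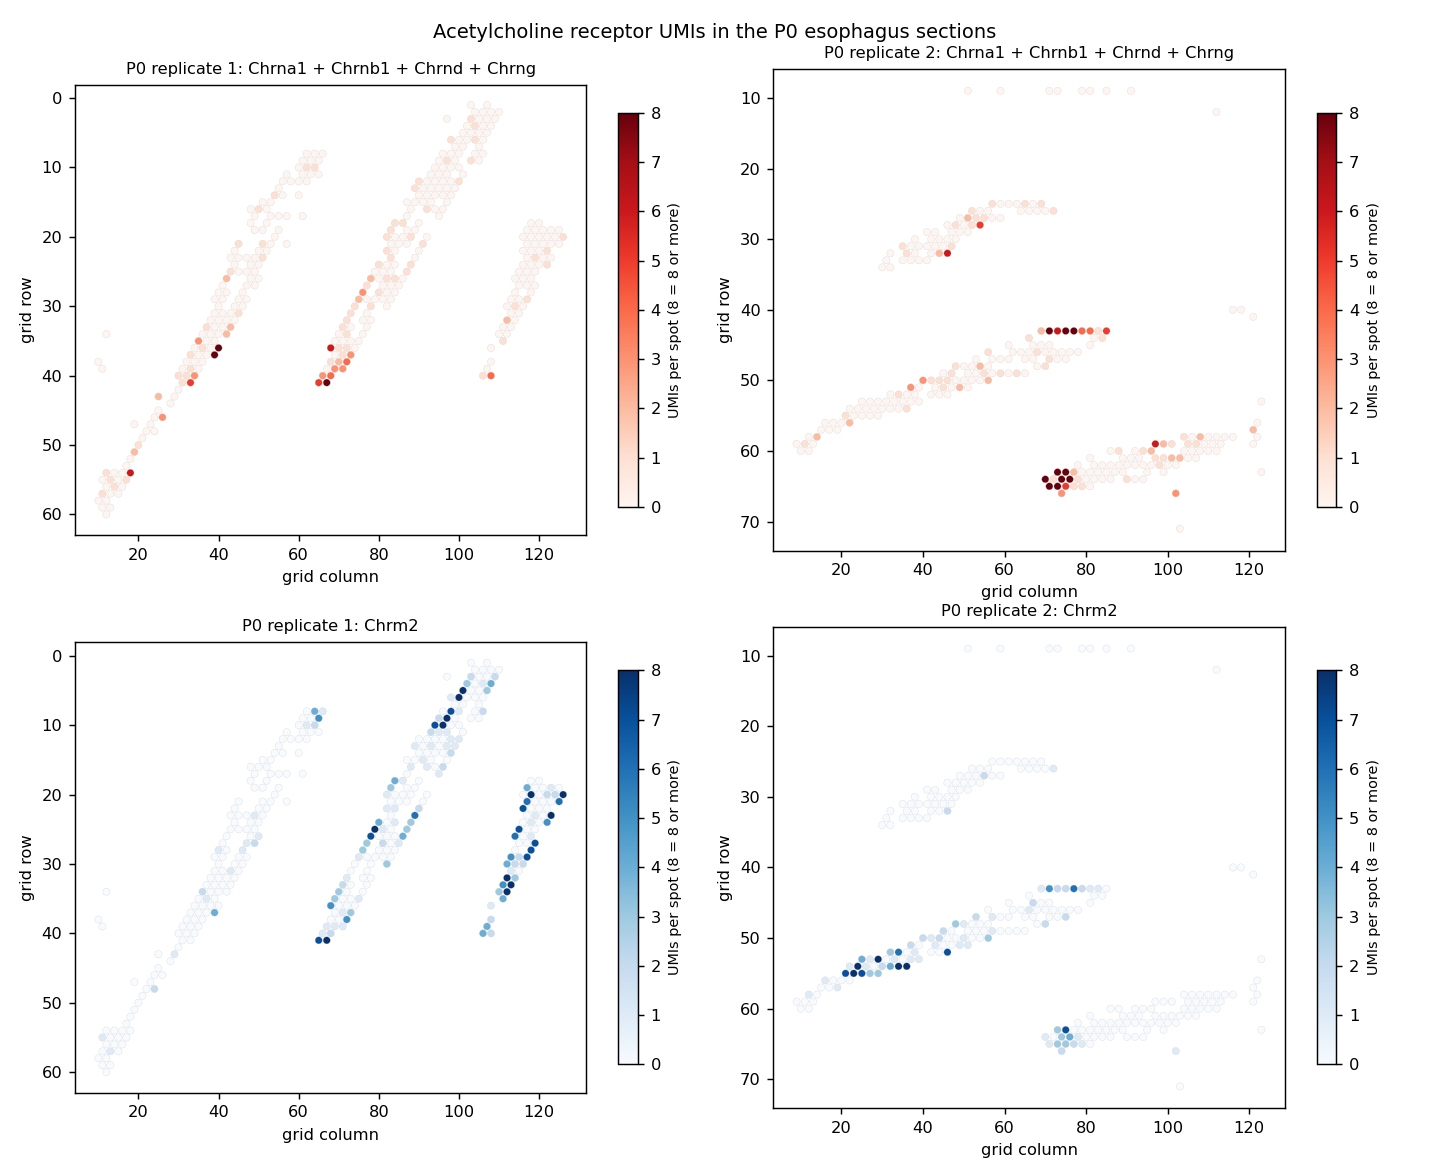
Each point is a spot of P0 replicate 1 (left) or P0 replicate 2 (right) at its grid column and row, coloured by summed UMIs of Chrna1, Chrnb1, Chrnd and Chrng (upper maps, red) or by Chrm2 UMIs (lower maps, blue), with counts of 8 or more in the darkest shade. The nicotinic UMIs sit at an end of some strips of tissue and in inner parts of others. Chrm2 is spread along several strips and low in epithelium-rich spots, at 4.09 and 2.23 CPM.

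Each P0 section held 3 strips of at least 20 spots, and along them the nicotinic genes were not evenly spread. In the second strip of replicate 2, the summed subunits stood at 255 CPM in the last of 4 segments, at the high grid rows, with 136 of the 162 UMIs, against 8.80, 17.4 and 3.08 CPM in the other segments. In the first strip of that section 65 of 95 UMIs lay in the segment at the low rows. In the first strip of replicate 1 63 of 90 lay in the last segment, at 48.8 CPM, against 5.10 to 17.1 CPM in the others. Other strips peaked away from their ends. In the second strip of replicate 1, 37 of 68 UMIs lay in the third segment, at 50.1 CPM. The third strip of replicate 2, with 27 UMIs, had 23.9 and 24.6 CPM in its inner segments, against 10.8 and 6.23 CPM at its ends. The third strip of replicate 1 held 14 UMIs, 8 of them in the last segment. Skeletal markers followed the same segments, with 16704 CPM where the subunits had 255 CPM. The labels do not give the orientation of the strips, so which end of the esophagus a segment lies towards is not known here. In replicate 2, 22 spots with at least 3 subunit UMIs held 73.7% of the UMIs, and in replicate 1 18 such spots held 51.7%.

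**Figure D4:**
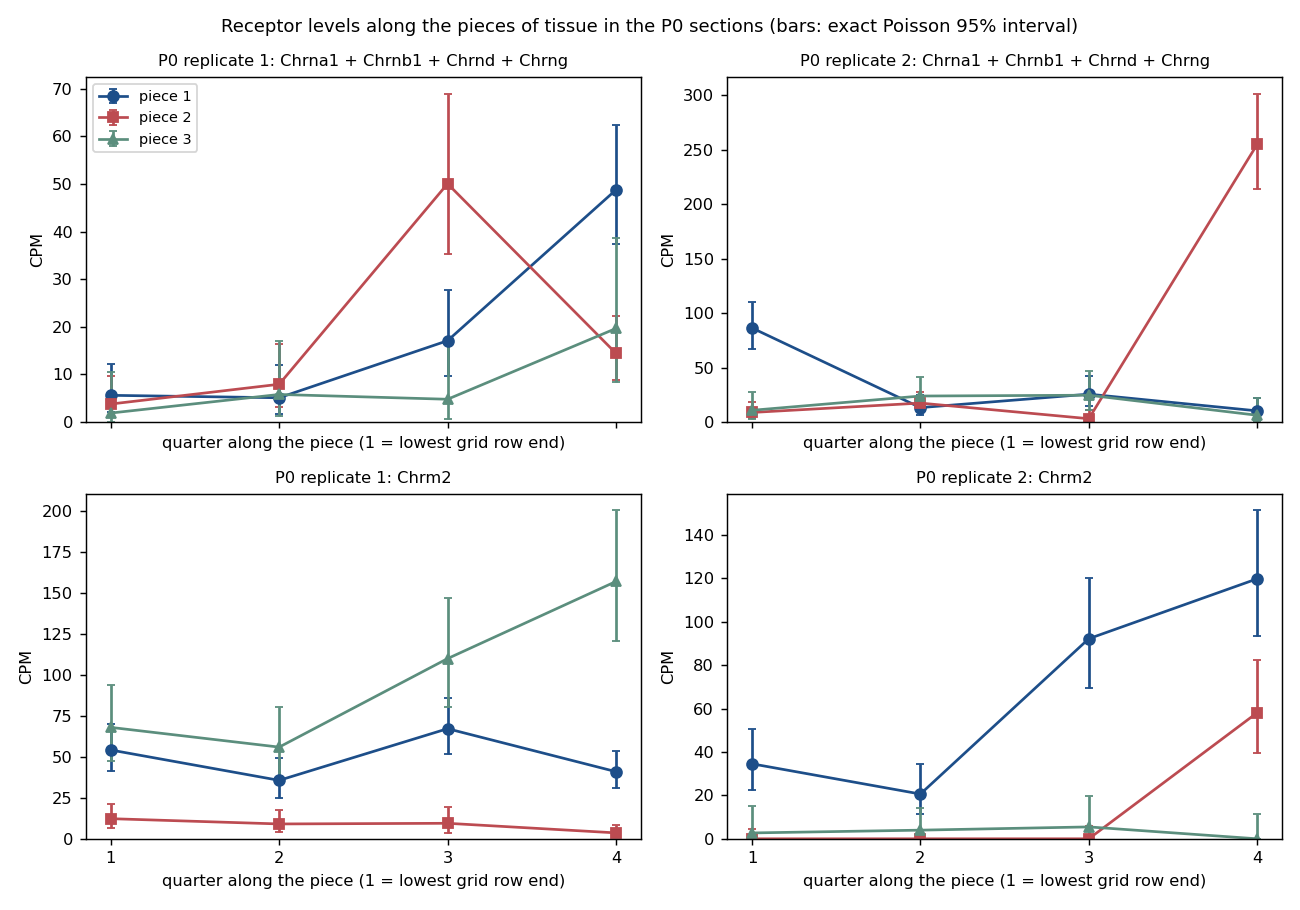
CPM in 4 segments along each strip of tissue (pieces 1 to 3, from the largest) of the P0 sections, for the summed nicotinic subunits (upper) and Chrm2 (lower), with exact Poisson 95% intervals; the vertical axes differ. The subunits peak at 255 CPM in a segment of piece 2 in replicate 2, where Chrm2 is at 58.1 CPM. Chrm2 in piece 1 of replicate 1 stays between 35.7 and 67.3 CPM.

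Chrm2 was highest in the smooth-muscle-rich spots of the P0 esophagus. It had 178 CPM (157 to 201) in replicate 1 and 128 CPM (106 to 154) in replicate 2 there, 139 and 105 CPM in spots high for both muscle scores, and 32.6 and 25 CPM in striated-muscle-rich spots. Epithelium-rich spots had 4.09 and 2.23 CPM. The order of these regions was the same in both sections, and the intervals of the smooth-muscle-rich and striated-muscle-rich spots do not overlap. With spots thinned to 10000 UMIs, Chrm2 was found in 71.2% and 44.7% of smooth-muscle-rich spots, against 2.56% and 3.28% of epithelium-rich spots. Unthinned, those shares were 79.7% and 54.2%, against 15.4% and 6.56%, at median depths of 20274 UMIs in replicate 1 smooth-muscle-rich and 39494 UMIs in its epithelium-rich spots.

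By the edgeR quasi-likelihood test Chrm2 was higher by 5.25 ± 0.22 on the log2 scale in smooth-muscle-rich over epithelium-rich spots (adjusted p = 7.42e-10). It had a log2 fold change of −2.30 ± 0.18 in striated-muscle-rich over smooth-muscle-rich spots (edgeR adjusted p = 7.73e-07), a direction in which 5.38% of genes were called. It was also higher in striated-muscle-rich over epithelium-rich spots, by 2.95 ± 0.31 (edgeR adjusted p = 2.92e-06). Those striated-muscle-rich spots carried 5660 and 3898 CPM of smooth muscle markers, against 1610 and 849 CPM in epithelium-rich spots, and their part in the Chrm2 level was not tested. Along the strips Chrm2 stayed between 35.7 and 67.3 CPM in all segments of the first strip of replicate 1. In the first strip of replicate 2 it stood at 119.8 CPM in the segment at the high rows, against 34.5 CPM in the segment with most nicotinic UMIs. The second strip of replicate 2 went the other way. All 31 of its Chrm2 UMIs, at 58.1 CPM, lay in the segment where the subunits had 255 CPM, and its other segments had 0. Over the whole strip Chrm2 had 8.12 CPM in the second and 93.5 CPM in the third of replicate 1, and 3.21 CPM in the third of replicate 2.

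In the embryos Chrm2 was nearly missing over skeletal muscle. At E13.5 it had 21.9 CPM (16 to 29.3) in smooth-muscle-rich, 10.1 CPM (6.52 to 14.9) in heart-rich and 10.7 CPM (7.40 to 15.1) in neuron-rich spots, and no UMI in striated-muscle-rich spots, where a floor of 3 UMIs stands at 1.59 CPM. Against that floor smooth-muscle-rich spots were at least 13.8-fold above striated-muscle-rich ones. At E16.5 heart-rich spots had 18.1 CPM (14 to 22.9), smooth-muscle-rich 14.6 CPM (9.17 to 22.2) and neuron-rich 11.1 CPM (7.81 to 15.3), and striated-muscle-rich spots held 1 UMI. The intervals of the first 3 overlap at E16.5, so they have no order there. Against all other spots Chrm2 had log2 ratios of 2.22, 1.07 and 1.17 in smooth-muscle-rich, heart-rich and neuron-rich spots at E13.5, where 4.34%, 6.33% and 7.48% of genes reached 1. At E16.5 the ratios were 0.91, 1.26 and 0.53, with 4.7%, 2.94% and 16.3% of genes reaching 1. Across tiles the genes nearest to Chrm2 were Slc8a1 (mean r 0.62), the sodium-calcium exchanger of the heart, and 9330158H04Rik (0.62), which overlaps it. Atp1b1 (0.54), a sodium pump subunit, Hk1 (0.54) and Pcdh7 (0.50) came next. Its own correlations with the nicotinic subunits lay between −0.33 and −0.13.

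**Figure D5:**
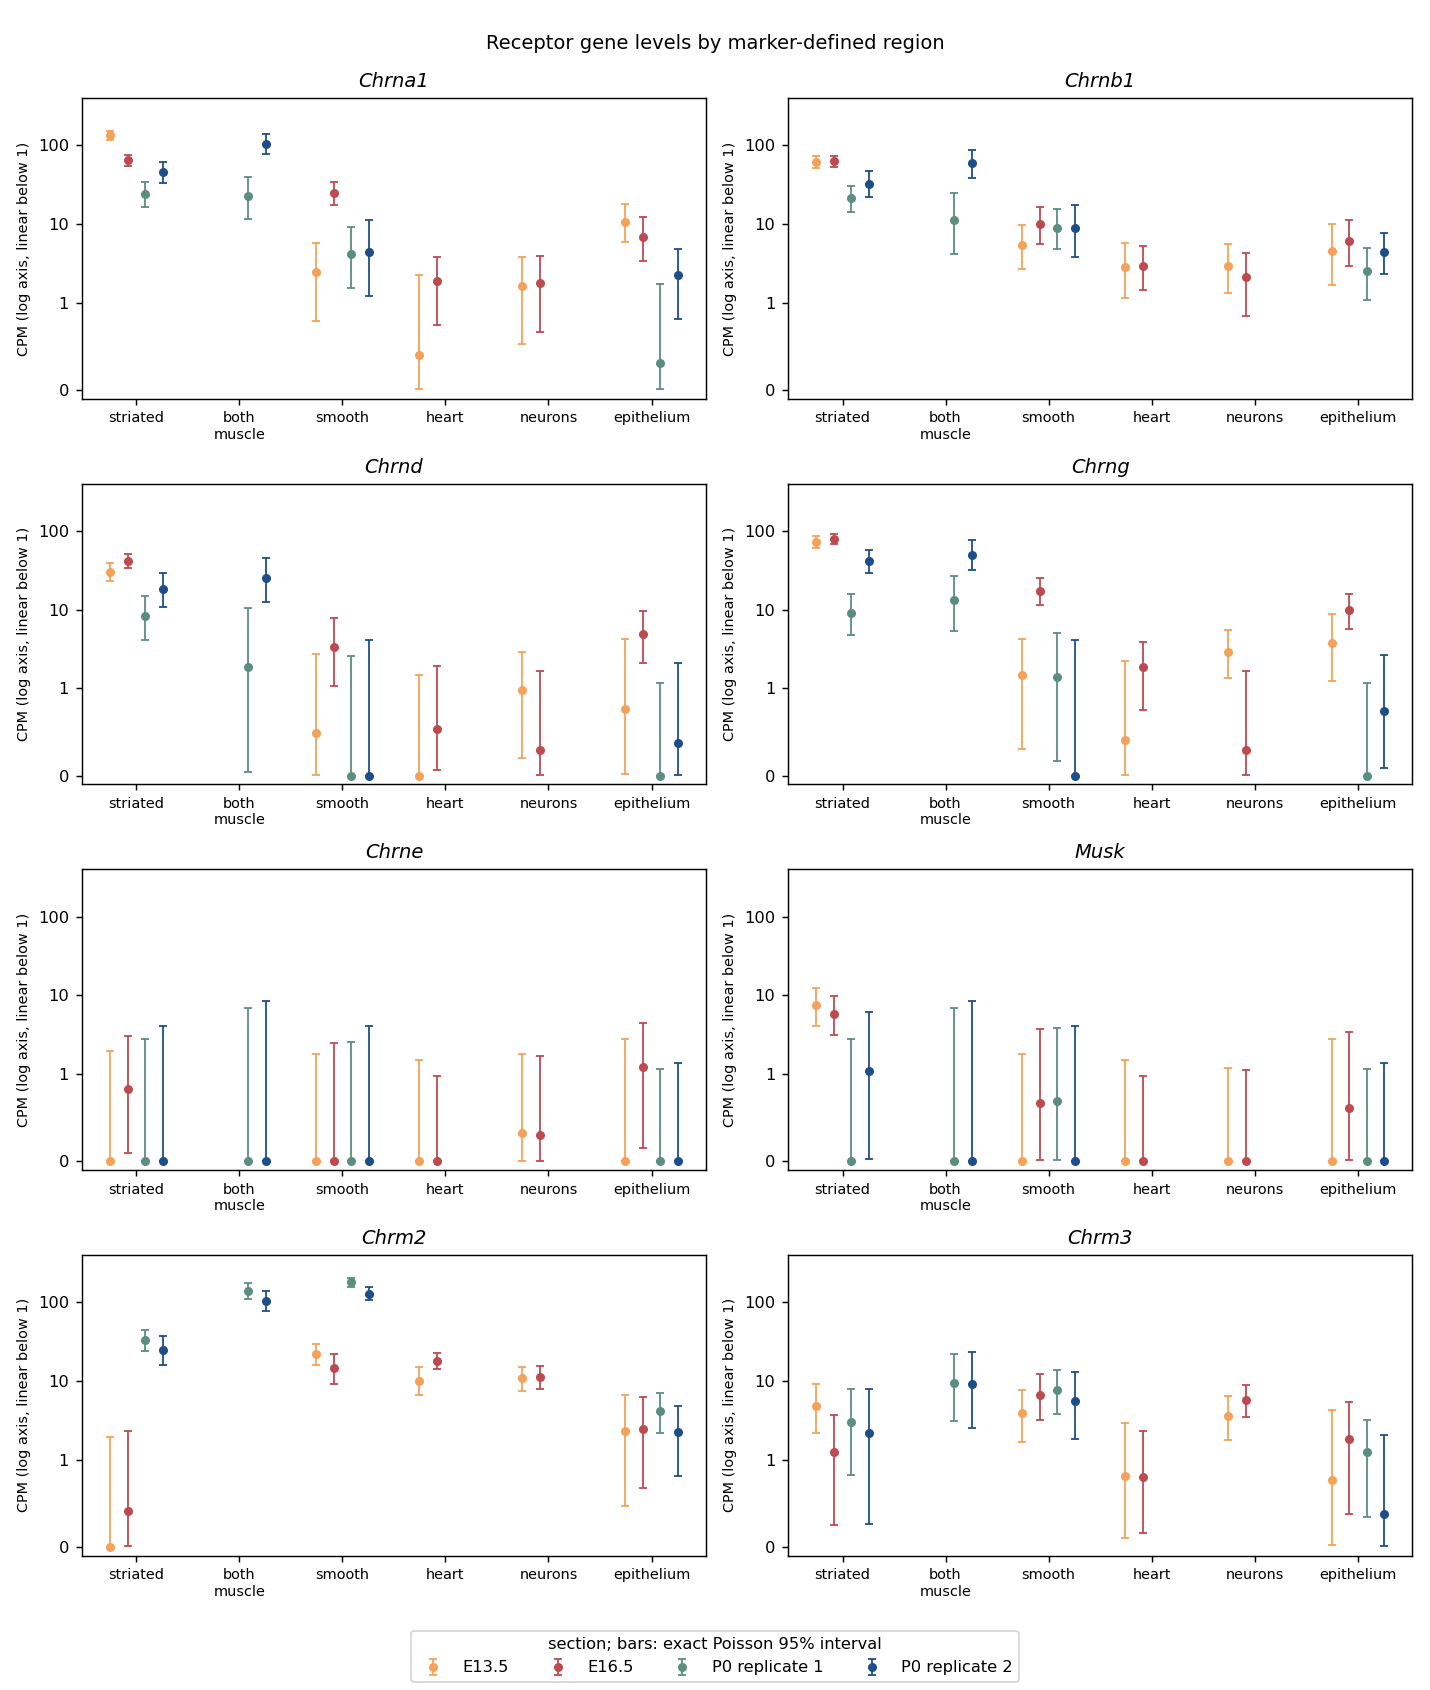
CPM of each of the 8 genes in marker-defined regions (horizontal axis) of the 4 sections (colours), with exact Poisson 95% intervals, on a log axis that is linear below 1; heart and neuron regions exist in the embryos alone and the region high for both muscle scores at P0 alone. Chrna1, Chrnb1, Chrnd and Chrng are higher in striated than in smooth muscle or epithelium in every section, and Chrm2 the reverse between the muscles.

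Chrm3 gave few UMIs in any region. At E16.5 it was found at 8.39 CPM (5.05 to 13.1) in salivary-marker-rich, 6.65 CPM (3.19 to 12.2) in smooth-muscle-rich and 5.70 CPM (3.43 to 8.89) in neuron-rich spots, against 0.797 CPM (0.164 to 2.33) in heart-rich spots. The heart-rich interval lies below the other 3, which overlap each other. At E13.5 it had 4.76, 3.90 and 3.58 CPM in striated-muscle-rich, smooth-muscle-rich and neuron-rich spots, on 8 to 11 UMIs each. At P0 it had 7.63 and 5.54 CPM in smooth-muscle-rich spots, against 1.26 and 0.371 CPM in epithelium-rich spots, and rose by 2.58 ± 0.72 on the log2 scale (edgeR adjusted p = 0.00715). In striated-muscle-rich spots it had 3.03 and 2.17 CPM and did not pass against epithelium-rich (edgeR adjusted p = 0.270) or smooth-muscle-rich spots (0.324), but passed the first with the highest 15% of spots (edgeR adjusted p = 0.0481). The tile neighbours of Chrm3 were neuronal genes, Syn2, Cacng3 and Hpca (mean r 0.52 each), then Slc7a14 (0.52) and Ckmt1 (0.51).

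Genes that carry muscarinic signals were mostly higher in smooth-muscle-rich than in epithelium-rich spots at P0. Of 14 listed, 12 were tested, and in smooth-muscle-rich over epithelium-rich spots 11 rose and 1, Gnaq, fell, where 24.0% of all genes were called higher and 23.1% lower. Their median log2 fold change was 2.16, beside 0.00 over all genes. Gnao1, a G protein alpha subunit, had 25.7 and 46.5 CPM in smooth-muscle-rich spots, against 0.314 and 1.11 CPM in epithelium-rich spots (log2 5.21 ± 0.67, edgeR adjusted p = 6.24e-06). Rgs6 had 4.40 ± 1.01 (0.00168), Rgs2 3.43 ± 0.20 (4.05e-09) and Gucy1a1 3.17 ± 0.24 (2.53e-08), the first 2 regulators of G protein signalling and the last a subunit of guanylate cyclase. Striated-muscle-rich over epithelium-rich spots had 7 of the 12 higher and 1 lower by edgeR, beside 17.3% and 14.4% of all genes. The median log2 fold change of the 12 there was 1.60. In striated-muscle-rich over smooth-muscle-rich spots none of the 12 rose, 4 fell and 8 were not called by edgeR. Of all genes 8.72% rose and 5.38% fell there. Rgs2 fell by 1.47, Itpr1 fell by 1.14, Gucy1a1 fell by 0.67 and Gnai2 fell by 0.48 on the log2 scale. Bche, butyrylcholinesterase, which breaks down acetylcholine, had 155 and 166 CPM in smooth-muscle-rich spots, against 8.81 and 9.65 CPM in epithelium-rich spots (edgeR adjusted p = 6.96e-09).

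All 4 myogenic regulators rose in striated-muscle-rich over epithelium-rich and over smooth-muscle-rich spots, with median log2 fold changes of 5.11 and 3.33 beside 0.03 and 0.04 over all genes. Myog had 117 and 233 CPM in striated-muscle-rich spots, against 6.93 and 29.9 CPM in smooth-muscle-rich spots. In smooth-muscle-rich over epithelium-rich spots 2 of the 4 also rose, beside 24.0% of all genes, and 2 were not called. They were Myod1, by 3.05 ± 0.98 (edgeR adjusted p = 0.0172), and Myog, by 1.42 ± 0.47 (0.0185). The part of skeletal muscle in those spots was not tested. Of 15 junction genes 11 were tested, and 5 rose and 3 fell in striated-muscle-rich over epithelium-rich spots by edgeR at an adjusted p of 0.05, beside 17.3% and 14.4% of all genes. Rapsn had 21.2 and 38.1 CPM in striated-muscle-rich spots, against 1.26 and 1.48 CPM in epithelium-rich spots. Ache, acetylcholinesterase, had 13.7 and 26.1 CPM, against 0.314 and 0.742 CPM. Dok7, the adaptor that activates MuSK, rose by 2.45 ± 0.61 (edgeR adjusted p = 0.00538), and Etv5, an ETS factor, by 2.18 ± 0.44 (0.00119). Against smooth-muscle-rich spots 4 rose, Rapsn, Ache, Erbb2 and Erbb3, and 1, Lamb2, fell, beside 8.72% and 5.38% of all genes. Of these 3 regions, Erbb2 and Erbb3 were highest in epithelium-rich spots. Erbb2 had 165 and 161 CPM there, against 120 and 110 CPM in striated-muscle-rich spots. Erbb3 had 119 CPM there in both sections, against 70.5 and 58.7 CPM. None of the 11 neuronal nicotinic or 3 other muscarinic genes passed the filter at P0.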

How the data were processed

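UMIs per gene and spot were deposited as raw counts, made with Space Ranger 2.0.0 per the file headers and against mm10 per the submitters' processing notes. The matrices hold spots over tissue, with totals from 7357333 to 105835664 UMIs per section. Spot barcodes come from a fixed set, and pairs of sections share 24 to 2542 of them. UMIs are from transcript ends and were not divided by length, so levels are compared between regions and not between genes.

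Spots with at least 500 UMIs were kept. Region scores were means over markers of log(1 + UMIs per 10000), spots high for several scores stayed out of each region apart from that high for both muscles, and region markers were left out of the tests. P0 counts were summed over 5 regions in each section and tested with edgeR 4.0.16 (its quasi-likelihood method after filterByExpr, TMM, section as a block, Benjamini-Hochberg at 0.05), with DESeq2 as an alternative. The fit was tested on simulated data with known changes. P-values measure how far the differences between regions vary from section to section, with the spread shared over the 5 regions. With 2 sections that variation may be technical. Same-numbered regions come from the same section, which is where the pairing comes from. Embryo ratios used a pseudocount of 0.5 CPM and genes with at least 20 UMIs; tiles were 8 grid columns by 4 rows with at least 100000 UMIs, on log2(CPM + 10), for genes with at least 100 UMIs in both embryos. Patches join neighbouring spots, and strips join spots within 2 grid steps. Thinned shares draw 10000 UMIs a spot.

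All 8 members are named. From each list the 4 largest called changes at most are named, and the 5 nearest genes of each member; list genes named for the embryos were chosen after their values were seen. The members and lists were chosen with earlier results of these data known. Alternatives were the low-count filter, normalization, test, block, depth minimum, region size, marker list, spots high for both muscles and each section left out; detached spots and the skeletal marker denominator were added after seeing the data. Intervals cover counting error only. Sequences and positions are RefSeq's for GRCm38.p6, matched by symbol for 7 of 8 promoters. A gene of the E16.5 patch with most Chrne is not reported here.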

Additional observations from a re-analysis of the deposited data

Results flagged for a closer look

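Some differences between regions ran in opposite directions in the embryo sections, and none of these differences between stages was tested. For Chrna1, smooth-muscle-rich minus epithelium-rich spots gave −8.24 CPM at E13.5, with 2.43 CPM on 5 UMIs against 10.7 CPM on 14 UMIs. At E16.5 it gave 17.8 CPM, with 24.6 CPM on 37 UMIs against 6.76 CPM on 11 UMIs. For Chrm3, striated-muscle-rich minus smooth-muscle-rich spots gave 0.865 CPM at E13.5, with 4.76 CPM on 9 UMIs against 3.90 CPM on 8 UMIs. At E16.5 it gave −5.41 CPM, with 1.24 CPM on 3 UMIs against 6.65 CPM on 10 UMIs.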

How the results depend on the processing

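Of 197 fold changes of the members under the alternatives, 188 kept their direction and, where a test was made, their side of the threshold. With a section left out no test was made, and direction alone was compared. Reversed were Chrnd in smooth-muscle-rich over epithelium-rich spots, at log2 3.42 with the highest 15% of spots (edgeR adjusted p = 0.285) and 0.76 with spots high for both muscles shared out (0.747), and Chrng there, at −1.31 to 1.92 when a section was left out, the first without P0 replicate 1. The main values were −1.75 and 1.02, and the cause was not tested. Chrm3 in striated-muscle-rich over epithelium-rich spots passed with the highest 15% of spots. Genes called numbered 3735 for striated-muscle-rich over epithelium-rich, 5541 for smooth-muscle-rich over epithelium-rich and 1657 for striated-muscle-rich over smooth-muscle-rich spots. DESeq2 called 2286 and 874 in the first and last, and the highest 15% of spots 1069 in the last. Without the replicate block, which pairs the regions of a section, the counts were 3504, 5342 and 1400, and of the members' calls the Chrnb1 call between the muscles was lost. The Chrne share was 0% at E13.5, 1.04% at E16.5 and 0% in P0 replicate 1 in striated-muscle-rich spots alone, and over the P0 sections it was 0% to 6.90% when a section was left out, beside 2.13%. Of 168 CPM values 15 moved beyond their intervals, mostly with larger embryo regions or smaller P0 ones, as when Chrna1 at E13.5 stood at 91.2 CPM in the highest 5% of striated spots. Of 42 values per marker UMI 6 moved, all with the list of 8 markers. Detached P0 spots and the marker denominators were alternatives chosen after seeing the data. Depth limits Chrne and Musk, with 2 UMIs each at P0, and Chrm3.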
